A study of Solanum lycopersicum with 18 samples.

Results

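The zone step of a gene is its change in RNA level from the elongation zone to the differentiation zone of the root. Of the 18 libraries of the study, 12 hold this step, 3 biological replicates for each zone in each genotype, and all 12 were used. The plants were 7-day-old tomato seedlings in the 'Ailsa Craig' background, either wildtype (WT) or mutants of the *diageotropica* allele dgt1-1 (*dgt*), grown alike on agar with sucrose and under long days. Both zones were dissected from the same kind of root. The elongation zone ran from the upper border of the meristem to the first root hair bulge, and the differentiation zone was a piece just above that bulge. Each library pools many root portions and so mixes all cell types of the zone, and fewer cells of a type cannot be told apart from less RNA per cell. The comparison was a single one, the *dgt* step minus the WT step, and it asks which genes change between the zones by an amount that depends on genotype. The other 6 libraries, from the meristem, entered only an alternative fit and the closing section.

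In a growing root, cells leave the meristem, expand rapidly in the elongation zone, and then stop expanding and mature. During expansion, expansins and enzymes that remodel xyloglucan loosen the wall. During maturation, root hairs, xylem and the barriers around the vascular tissue form, and carriers for minerals, sugars and water are put in place. Auxin guides these changes: Aux/IAA proteins repress auxin-responsive genes until auxin causes their breakdown, GH3 enzymes attach amino acids to auxin or other acid hormones, and PIN and LAX carriers move auxin between cells. The *dgt* mutation affects a cyclophilin, an enzyme class that turns peptide bonds at proline. Mutant plants are resistant to auxin and do not initiate lateral roots.

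The expected counts of the 12 libraries summed to between 18032826 and 20622998. The TMM factors, which correct each total for the make-up of its library, were 0.747 to 0.878 in WT and 1.02 to 1.06 in *dgt* for elongation libraries, and 0.972 to 1.09 in WT and 1.09 to 1.13 in *dgt* for differentiation libraries. No replicates agreed within sampling noise, and WT replicate 1 stood farthest from its partners in both zones, with a chi-square per degree of freedom of 25.6 to 41.4 against 9.29 to 28.0 for all pairs without it. Wall enzymes separated the labelled zones: the summed TPM of 26 xyloglucan and glucan enzymes lay at 3412 to 4743 in the elongation libraries of both genotypes and at 1457 to 1790 in the differentiation libraries. Markers of green tissue moved with genotype as well as zone. The summed TPM of 28 photosynthesis genes was 68.1 to 95.1 in the WT elongation zone, 238 to 282 in the WT differentiation zone, 331 to 429 in the *dgt* elongation zone and 933 to 1187 in the *dgt* differentiation zone, and none of the 28 was at 0 in any group. The part of these genes in the results was not tested. No gene is named DGT in the files, and dgt1-1 need not change the RNA level of its own gene, so the labels could not be checked that way. CyP, a cyclophilin whose identity with DGT the sources used here do not establish, had a difference of the steps of 0.37 ± 0.35 (log2, SE) and was not called (edgeR adjusted p = 0.62).

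Genotype altered the step of 1182 of the 21270 genes tested, which is 5.56%. For 569 genes (2.68%) the *dgt* step lay above the WT step and for 613 (2.88%) below it. These genes passed edgeR's quasi-likelihood test of the interaction with a Benjamini-Hochberg adjusted p under 0.05 and differed between the steps by more than 2-fold, that is by more than 1 on the log2 scale. Without the fold minimum, 1679 genes (7.89%) passed. The zone step itself was large in both genotypes: 6885 genes (32.4%) were called between the zones in WT, 3527 up and 3358 down, and 6417 (30.2%) in *dgt*, 3233 up and 3184 down. Both steps were called in the same direction for 4716 genes and in opposite directions for 30. Simple separation of the zones is common here, as the 3 libraries of 1 zone all lay above those of the other for 63.0% of genes in WT and 67.0% in *dgt*. Over all genes tested the median difference of the steps was 0.02, a value that the TMM scaling holds near 0. Genes that rose in WT rose less in *dgt*: the 3527 WT rises had a median log2 step of 1.64 in WT and 1.27 in *dgt*, against -1.64 and -1.48 for the 3358 WT falls. The 3233 *dgt* rises, chosen in the other genotype, had medians of 1.56 in *dgt* and 1.44 in WT, and the 3184 *dgt* falls had -1.67 and -1.60. Each set was chosen by the first step it lists, which makes that step the larger one on average.

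The called genes were sorted by which step was itself called. A step was lost where it was called in WT and not in *dgt*, gained where it was called in *dgt* only, and reversed where both were called with opposite signs. Lost rises formed the largest of these classes, with 296 genes, against 129 lost falls, 191 gained rises and 86 gained falls. Only 30 genes reversed, 16 of them rising in WT and falling in *dgt* and 14 the other way round. A further 338 genes kept their direction with an unequal size, smaller in *dgt* for 187 and larger for 151, and for 112 genes neither step was called on its own. A gene whose step was called in 1 genotype only is not by that shown to differ: of the 2139 genes called in WT only, 425 passed the interaction test, and of the 1671 called in *dgt* only, 277 did.

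**Figure D1:**
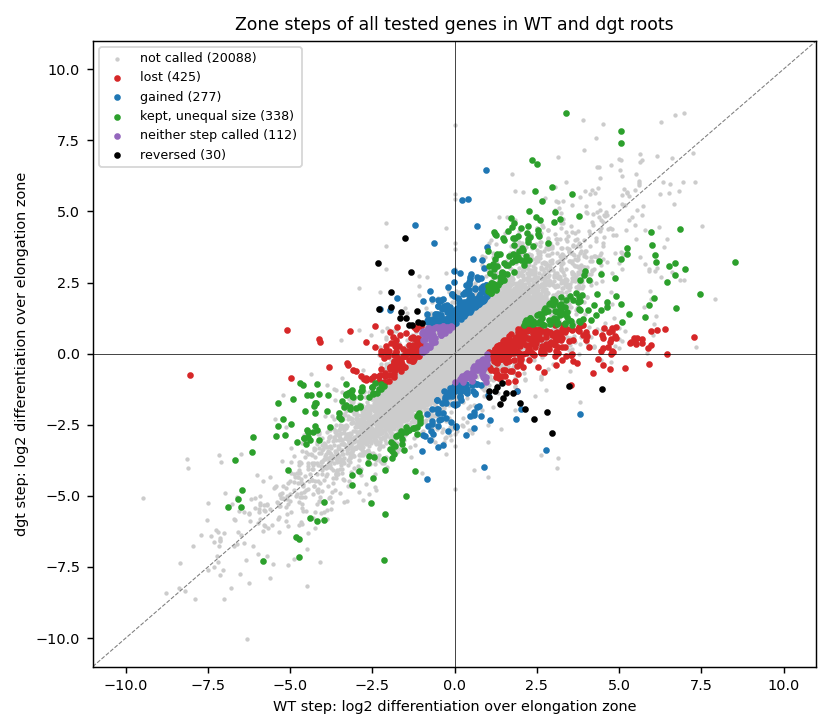
Each point is 1 of the 21270 genes tested, with its WT zone step on the x axis and its *dgt* zone step on the y axis (log2 differentiation over elongation zone, 3 libraries per group). The dashed line marks equal steps. The 296 lost rises form the band along the x axis to the right, where WT rises reach past 5 and the *dgt* step stays near 0.

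Most lost rises were genes already high in the *dgt* elongation zone. Of the 296, 208 were higher in *dgt* than in WT in the elongation zone, where 9.64% of all genes tested were, and 66 were lower in *dgt* in the differentiation zone, where 4.44% of all genes were. The median log2 difference between the genotypes was 2.26 in the elongation zone and 0.31 in the differentiation zone. In 147 of the 296 the mean level of the *dgt* elongation zone was at or above that of the WT differentiation zone, and in 66 more it was at least 50% of it. These counts describe the class and carry no test, because a lost rise must be higher at the start or lower at the end and the same libraries define it. The zone of the difference was less one-sided among lost falls, gained rises and gained falls. Of the 129 lost falls, 48 were lower in *dgt* in the elongation zone and 57 higher in the differentiation zone, against 5.03% and 8.57% of all genes tested. Of the 191 gained rises, 90 were lower in *dgt* in the elongation zone and 65 higher in the differentiation zone. Of the 86 gained falls, 40 were higher in the elongation zone and 33 lower in the differentiation zone.

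**Figure D2:**
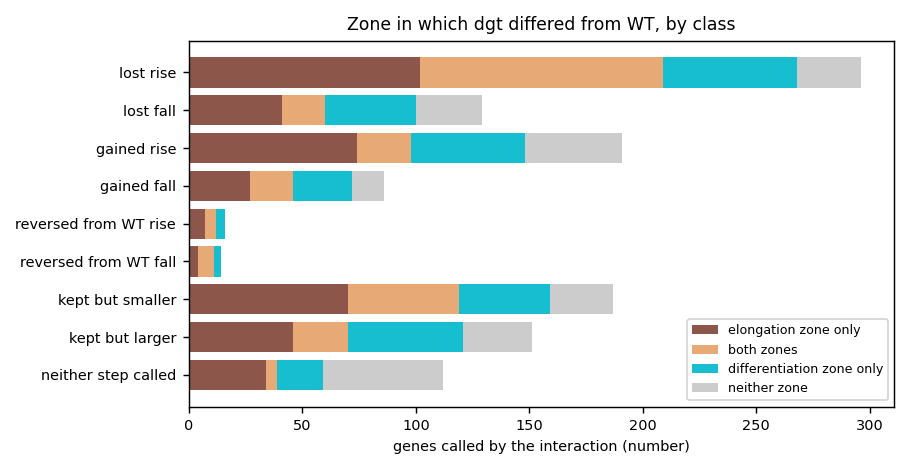
Bars give the number of genes called by the interaction in each class, divided by the zone or zones in which *dgt* differed from WT by more than 2-fold at an adjusted p under 0.05. Of the 296 lost rises, 102 differed in the elongation zone only, 107 in both zones, 59 in the differentiation zone only and 28 in neither.

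LOC109119816 showed the lost rise with the largest difference of the steps, leaving aside genes with a group at or under the floor of 3 counts per library. Its normalised counts were 4.33, 7.79 and 3.51 in the WT elongation zone and 243, 328 and 385 in the WT differentiation zone, against 1335, 1174 and 1970 in the *dgt* elongation zone and 1784, 1389 and 2009 in the *dgt* differentiation zone. The WT zones were far apart, the *dgt* zones overlapped, and every *dgt* library lay above every WT library. The step was 5.88 ± 0.36 (log2, SE) in WT and 0.21 ± 0.20 in *dgt*, a difference of -5.67 ± 0.44 (edgeR adjusted p = 7.0e-06). LOC101266136 ran the same course, from 1.17 to 24.5 up to 586 to 707 in WT and from 1171 to 2381 up to 2137 to 2156 in *dgt*, with a difference of -5.34 ± 0.51 (edgeR adjusted p = 2.86e-05). The gene table used here gives neither of them a name.

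LEAS1, which the RefSeq gene table lists as AS1, had the smallest adjusted p of the comparison. Its counts went from 38.9, 47.8 and 59.7 to 1098, 1431 and 1358 between the WT zones, and from 9008, 7949 and 9855 to 5854, 6369 and 6262 between the *dgt* zones. The zones were separate in both genotypes, with opposite directions, and the 2 genotypes did not overlap in either zone. The WT step was 4.72 ± 0.18 and the *dgt* step -0.54 ± 0.14, below 2-fold, and their difference was -5.25 ± 0.23 (edgeR adjusted p = 1.57e-08). Glb2, a nonsymbiotic hemoglobin, rose in WT from 18.8, 14.5 and 14.1 to 149, 197 and 276, and went in *dgt* from 801, 829 and 525 to 588, 556 and 561. All *dgt* values were above all WT values and the *dgt* zones overlapped. The difference of the steps was -4.07 ± 0.36 (edgeR adjusted p = 1.47e-05).

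Within the same group, cuAO, a copper amine oxidase, had counts of 60.6 to 79.6 in the WT elongation zone and 460 to 838 in the *dgt* elongation zone, and reached 1004 to 1113 in WT and 942 to 1148 in *dgt*. The genotypes overlapped at the end of the step and not at its start. The step was 3.91 in WT and 0.67 in *dgt*, a difference of -3.24 ± 0.27 (edgeR adjusted p = 1.19e-05). Glb1, the other hemoglobin, moved the opposite way. It lay at 4788 to 7057 over the 6 WT libraries and rose in *dgt* from 1233 to 2299 up to 3321 to 5133, a gained rise of 1.20 with a difference of 1.24 ± 0.33 (edgeR adjusted p = 0.031). That call held in 5 of the 12 fits that left out 1 library, with an adjusted p of up to 0.0842.

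ABC transporters, which carry hormones, lipids and defence compounds across membranes, were the largest family examined: 10 of the 79 tested were called (12.7%, against 5.56% of all genes), 4 with a higher and 6 with a lower *dgt* step. The median difference over the 79 was 0.01, against 0.02 over all genes. Of the 6 lower, 5 of subfamily G were lost rises. ABCG42 rose in WT from 2.88, 5.56 and 0 to 69.2, 146 and 142, while in *dgt* it went from 442, 342 and 733 to 626, 637 and 687. The *dgt* zones overlapped, and the difference was -4.97 ± 0.68 (edgeR adjusted p = 0.000484). ABCG6 was at or near 0 in the WT elongation zone (0, 1.11 and 0) and at 33.5 to 54.3 in the WT differentiation zone, but at 250 to 545 and 347 to 397 in the *dgt* zones. ABCG23 had 1.17 to 2.88 and 22.7 to 67.2 in the WT zones and 169 to 289 and 213 to 233 in the *dgt* zones. For ABCG6 and ABCG23 the WT elongation zone is under the floor of 3 counts in each library, so the fitted difference depends on the prior count and is not given. ABCG1 and ABCG13 had differences of -2.89 ± 0.51 and -2.01 ± 0.45 (edgeR adjusted p = 0.00321 and 0.0128). In each of the 5 the *dgt* elongation libraries lay above every WT elongation library. The share of all genes with that order was not computed. The 5 were picked as lost rises, of which 208 of 296 were higher in the *dgt* elongation zone, so the order is no separate result.

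The ABC transporters outside that group were mixed. ABCG16 and ABCB2 lost a fall (the ABCB2 call held in 6 of the 12 fits without 1 library), ABCG40 gained a rise, ABCB6 rose further in *dgt* than in WT, and ABCG52 gained a fall. ABCG40 is the clearest gain: it had 3973 to 5832 and 8397 to 8916 counts in the WT zones and rose in *dgt* from 917, 813 and 809 to 3471, 3368 and 3903. Every *dgt* library lay below every WT library, and the *dgt* step of 2.08 exceeded the WT step by 1.31 ± 0.20 (edgeR adjusted p = 0.00145).

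Other named lost rises share this shape. LEMT1, a metallothionein-like protein, was among the most abundant. It had 4274 to 7782 counts in the WT elongation zone, 20072 to 37765 in the WT differentiation zone, 31024 to 52582 in the *dgt* elongation zone and 42243 to 49176 in the *dgt* differentiation zone. SlVPE3, a vacuolar processing enzyme, rose in WT from 273, 467 and 302 to 1861, 1715 and 2011 and lay at 4103, 4572 and 4811 and then 5874, 6039 and 6119 in *dgt*. In both genes the *dgt* elongation libraries lay above every WT elongation library. The difference was -2.26 for LEMT1 (edgeR adjusted p = 0.00233), and for SlVPE3 the step was 2.42 in WT and 0.42 in *dgt* (edgeR adjusted p of the difference = 0.000173). Both were chosen after their values were seen. TAS14, a dehydrin induced by abscisic acid, had a wide gap between genotypes, with 4.45 to 36.3 counts over the WT libraries and 7221 to 12023 over the *dgt* libraries. Its WT rise of 1.57 was small beside that gap, its *dgt* step was -0.08, and the difference of -1.65 ± 0.44 (edgeR adjusted p = 0.0321) held in 4 of the 12 fits without 1 library, with an adjusted p of up to 0.0912.

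A smaller number of lost rises had *dgt* below WT at the end of the step. Among 25 cell cycle genes tested, 5 had a lower and 1 a higher *dgt* step, 24.0% against 5.56% of all genes, with a median difference of -0.15. The summed TPM of the 25 was higher in *dgt* in the elongation zone, at 728 to 826 against 635 to 646, and overlapped in the differentiation zone, at 632 to 679 against 621 to 686, so the sum does not follow the members that were called. For the B-type cyclins and cdkB2 the genotypes lay closer in the elongation zone, and in the differentiation zone *dgt* was lower by less than 2-fold. CYCB1-2, a B-type cyclin that drives entry into mitosis, rose in WT from 104, 92.3 and 104 to 240, 378 and 325 and in *dgt* from 123, 155 and 97.5 to 197, 191 and 184. The elongation libraries of the genotypes overlapped, and every *dgt* differentiation library lay below every WT one. For cdkB2, a kinase of the same phase, the WT zones held 90.9 to 123 and 471 to 567, and the *dgt* zones 98.0 to 221 and 273 to 322. The difference of the steps was -1.05 ± 0.27 for CYCB1-2 and -1.30 ± 0.31 for cdkB2 (edgeR adjusted p = 0.0295 and 0.0198).

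CycB2, another B-type cyclin, rose in WT from 15.9, 23.4 and 18.7 to 76.7, 79.6 and 69.8 and in *dgt* from 24.0, 26.2 and 23.4 to 47.4, 43.1 and 33.1, a difference of -1.20 ± 0.34 (edgeR adjusted p = 0.0438). Here too the *dgt* differentiation libraries were the lower ones. For cdc20-1, an activator of the complex that ends mitosis, the *dgt* elongation libraries, at 159 to 284, lay above all WT ones, a called difference of 1.04 (edgeR adjusted p = 0.00396). Its *dgt* differentiation libraries, at 178 to 253, lay below the WT ones, at 276 to 338, but that difference of -0.57 was not called (edgeR adjusted p = 0.0694). Its difference of -1.61 ± 0.33 (edgeR adjusted p = 0.00726) held in all 12 fits without 1 library. The other calls of the group were less firm. That of CycB2 held in 1 of 12, that of CYCB1-2 in 3 and that of cdkB2 in 10, with adjusted p-values of up to 0.0985, 0.0759 and 0.0551, and the lower members of the list numbered 1 to 4 in these fits, 1 of them without *dgt* elongation replicate 2 or *dgt* differentiation replicate 2. wee1, an inhibitor of entry into mitosis, and cycd3c3, a D-type cyclin, were called although neither of their steps was, with differences of -1.43 and 1.63, and held in 4 and 5 of the 12 fits, with adjusted p-values of up to 0.1 and 0.0799. 

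SlCYP735A2 and TPX2 also ended lower in *dgt* than in WT. SlCYP735A2, which hydroxylates cytokinins to the trans-zeatin form, rose in WT from 144, 178 and 177 to 646, 554 and 516 and in *dgt* from 265, 206 and 236 to 327, 275 and 367. The *dgt* libraries lay above WT in the elongation zone and below WT in the differentiation zone, and the step was 1.78 in WT and 0.45 in *dgt*, a difference of -1.32 ± 0.22 (edgeR adjusted p = 0.00209). TLOG1, an enzyme that releases active cytokinin, rose by 2.52 in WT and by 0.81 in *dgt* but lay higher in *dgt* in both zones, at 334 to 444 and 662 to 703 against 25.8 to 52.3 and 195 to 264. These were the 2 called members of 16 cytokinin genes tested (12.5%, against 5.56% of all genes). TPX2, a secreted peroxidase, rose in WT from 5518 to 7172 up to 13938 to 21205 and in *dgt* from 3094 to 4304 up to 4524 to 5540. The *dgt* differentiation libraries lay at the lower edge of the WT elongation libraries, and the difference was -1.03 ± 0.25 (edgeR adjusted p = 0.0219, held in 7 of 12 fits without 1 library).

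**Figure D3:**
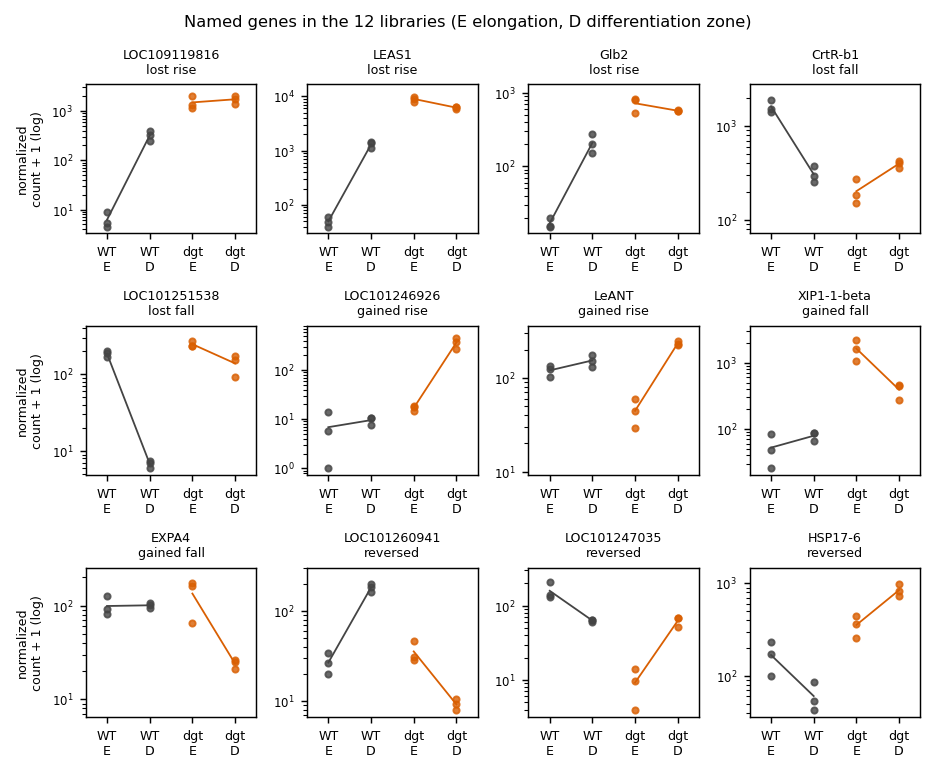
Normalised counts plus 1, on a log axis, of 12 genes in the 12 libraries, with points for libraries and lines joining the group means. LEAS1 lies between 38.9 and 59.7 in the WT elongation zone and between 5854 and 9855 in *dgt*, while CrtR-b1 falls in WT and not in *dgt*.

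Lost falls were fewer. LOC112942251 had the largest difference among those with no group at the floor, and its replicates spread widely, from 588, 1477 and 2084 down to 14.1, 27.5 and 75.0 in WT, with 15.4 to 129 and 67.5 to 216 in the *dgt* zones. Only the WT elongation libraries were high. The difference of 5.93 ± 0.96 had an edgeR adjusted p of 0.00178. CrtR-b1, a beta-carotene hydroxylase of carotenoid synthesis, had the same shape with tighter replicates. It fell in WT from 1904, 1415 and 1530 to 372, 293 and 250 and in *dgt* went from 182, 151 and 269 to 405, 355 and 427. The *dgt* zones did not overlap, but the rise of 0.98 was just short of 2-fold. The difference of 3.39 ± 0.29 (edgeR adjusted p = 1.19e-05) lay in the elongation zone, where *dgt* was lower by 3.01 on the log2 scale, while in the differentiation zone it was 0.38 higher and not called.

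Other lost falls differed mainly in the differentiation zone. ERF-H2, an AP2/ERF transcription factor, had 385, 343 and 281 counts in the WT elongation zone and 327, 301 and 308 in the *dgt* one. It fell in WT to 43.2, 33.4 and 27.6 and stayed in *dgt* at 250, 286 and 208. The genotypes overlapped in the elongation zone and were apart in the differentiation zone, with a difference of 2.95 ± 0.26 (edgeR adjusted p = 1.47e-05). LOC101251538 kept less of its level, with 166 to 203 falling to 4.91 to 6.49 in WT and 234 to 274 going to 91.4 to 171 in *dgt*. Its *dgt* zones did not overlap, and the *dgt* step of -0.84 was short of 2-fold. The unnamed LOC101253320 fell in WT from 271, 215 and 383 to 0, 0 and 2.58 and was at 2269, 2444 and 1359 and then 1126, 984 and 1525 in *dgt*. Its WT differentiation libraries are under the floor of 3 counts, so no fold is given against them.

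Among hormone genes the Aux/IAA repressors moved in 1 direction. Of the 17 tested, 4 were called, all with a higher *dgt* step and all lost falls, which is 23.5% against 5.56% of all genes, and 7 passed the adjusted p alone. The median difference over the 17 was 0.76, against 0.02 over all genes, with a median step of -0.72 in WT and -0.02 in *dgt*. In WT 7 of the 17 fell and 1 rose, and in *dgt* 3 fell and 4 rose. IAA3 fell in WT from 105, 141 and 141 to 31.3, 33.4 and 30.2 and went in *dgt* from 110, 140 and 86.3 to 91.2, 117 and 104. The elongation libraries of both genotypes overlapped and the *dgt* differentiation libraries were all higher. Its difference of 1.93 ± 0.30 (edgeR adjusted p = 0.00138) held in all 12 fits without 1 library, as did that of IAA21.

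IAA21 differed at the other end. Its counts were 83.7, 96.8 and 82.0 and then 37.8, 24.6 and 17.2 in the WT zones, and 25.0, 18.5 and 7.5 and then 35.6, 31.9 and 30.3 in the *dgt* zones. Only the WT elongation zone was high, the *dgt* zones did not overlap, and the difference was 2.68 ± 0.49 (edgeR adjusted p = 0.0039). IAA2 was lower in *dgt* throughout, with 392 to 558 and 156 to 233 in WT and 58.6 to 73.1 and 42.2 to 80.4 in *dgt*. IAA10 was higher in *dgt* throughout, with 56.2 to 90.1 and 20.7 to 45.2 in WT and 119 to 130 and 116 to 172 in *dgt*. Both lost the fall, at different levels, and their differences of 1.17 ± 0.34 and 1.43 ± 0.37 were near the threshold (edgeR adjusted p = 0.045 and 0.027), holding in 3 and 6 of the 12 fits without 1 library with adjusted p-values of up to 0.14 and 0.0734. In those fits the called Aux/IAA members numbered 2 to 4, with 2 where *dgt* elongation replicate 1 or *dgt* differentiation replicate 1 was left out, and 2 also when the trend with gene length was removed. Under 8 alternative normalizations, tests and filters, IAA3 and IAA21 held their calls in all 8, IAA10 in 7 and IAA2 in 3. Besides the length trend, IAA2 lost its call with DESeq2 size factors, with limma voom with or without quality weights, and with all 18 libraries.

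**Figure D4:**
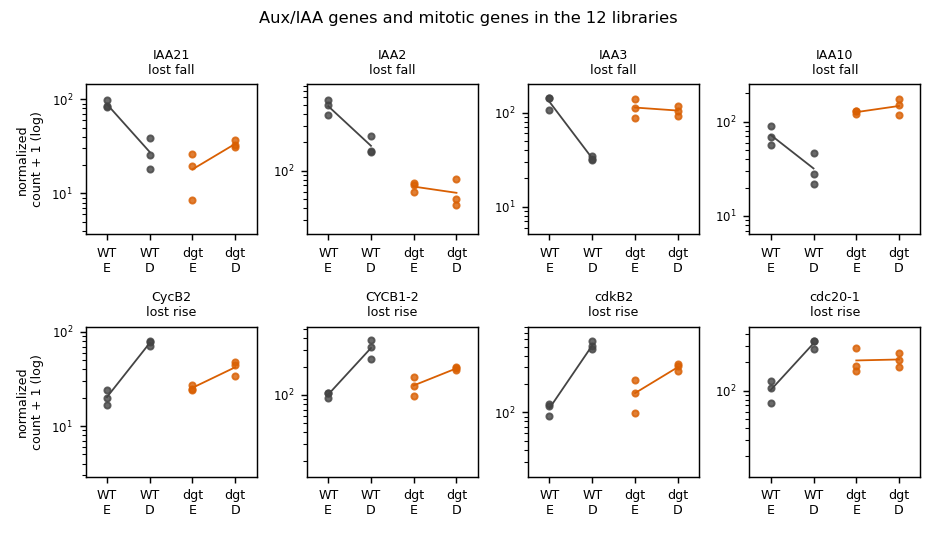
Normalised counts plus 1, on a log axis, of the 4 called Aux/IAA genes and 4 mitotic genes, with points for libraries and lines joining the group means. All 4 Aux/IAA genes fall in WT, with no fall called in *dgt*, and the 4 mitotic genes end higher in WT than in *dgt*.

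GH3 enzymes were called in both directions, 3 lower and 2 higher of 13 tested (38.5%, against 5.56% of all genes), with a median difference of 0.29. GH3-9 rose in WT from 250, 202 and 185 to 783, 635 and 547 and went down in *dgt* from 787, 638 and 647 to 372, 370 and 308. The zones were apart in both genotypes and their order was opposite, though the *dgt* decrease of 0.98 was below 2-fold. The difference of -2.61 ± 0.23 had an edgeR adjusted p of 1.47e-05. GH3-4 also lost a rise, from 48.0 to 76.4 up to 91.3 to 214 in WT and with 397 to 1011 and then 317 to 396 in *dgt* (difference -2.21 ± 0.47, edgeR adjusted p = 0.00939). Its *dgt* libraries lay above WT in both zones, while those of GH3-9 ended below WT. The other called members were near the threshold. GH3-15 lost a rise, GH3-1 gained one, and GH3-7 was called with neither step past 2-fold. Their adjusted p-values by edgeR were 0.0407, 0.0367 and 0.0041, and they held in 2, 4 and 7 of the 12 fits without 1 library. No higher member was called with DESeq2 or in the fit of all 18 libraries.

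Enzymes of auxin synthesis gave 2 called genes of 6 tested (33.3%) and carriers of auxin 2 of 13 (15.4%), against 5.56% of all genes. TAA1, the aminotransferase of the first step, fell in WT from 153, 141 and 159 to 4.32, 8.84 and 5.17 and in *dgt* from 34.6, 32.1 and 30.0 to 10.0, 12.1 and 22.7. The *dgt* libraries lay between those of the WT zones, and the fall shrank from -4.60 to -1.11, a difference of 3.49 ± 0.46 (edgeR adjusted p = 0.000383). FZY2, a flavin monooxygenase of the next step, lost its rise, with 65.6 to 71.2 and 151 to 175 in the WT zones and 261 to 310 and 218 to 238 in the *dgt* zones (difference -1.58 ± 0.20, edgeR adjusted p = 0.000272). LAX4, an influx carrier, fell in WT from 552, 606 and 595 to 273, 250 and 250 and held at 384 to 514 and 400 to 466 in *dgt*. LAX2, another influx carrier, rose in both genotypes, from 53.4 to 69 up to 118 to 294 in WT and from 79.8 to 129 up to 845 to 1029 in *dgt*. The differences were 1.15 ± 0.19 for LAX4 and 1.45 ± 0.40 for LAX2 (edgeR adjusted p = 0.00195 and 0.0387), and the LAX2 call held in 5 of 12 fits without 1 library. Of the 21 auxin response factors, ARF6 alone was called (4.76%, near the share over all genes). Its difference was -1.13 ± 0.33, and the call held in 2 of 12 fits.

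**Figure D5:**
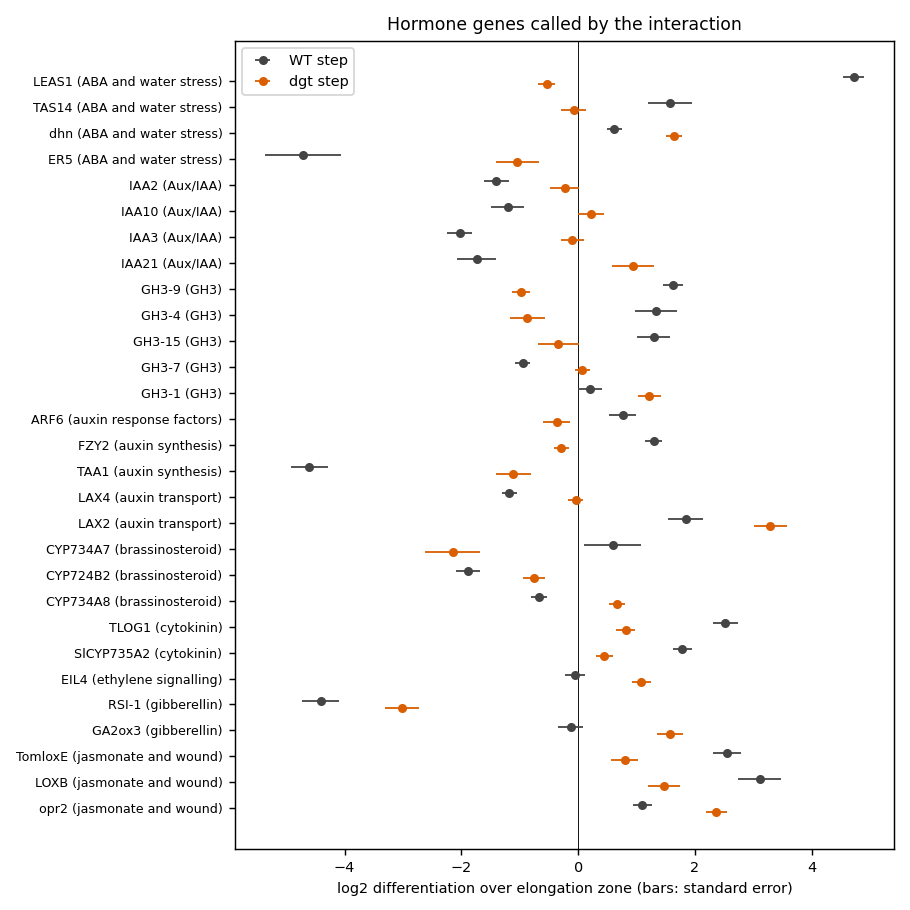
WT and *dgt* zone steps (log2 differentiation over elongation zone, bars are standard errors, 3 libraries per group) of 29 hormone genes called by the interaction. The *dgt* steps of the 4 Aux/IAA genes lie near or above 0, to the right of the WT steps at -1.21 to -2.03.

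For the remaining hormone lists the calls were few in number. Called were 2 of 11 gibberellin genes (18.2%) and 3 of 9 brassinosteroid genes (33.3%), against 5.56% of all genes. GA2ox3, which inactivates gibberellins, gained a rise, from 51.5 to 72.2 up to 157 to 248 in *dgt* against 162 to 199 and 140 to 191 in WT. It was the *dgt* elongation zone that stood apart, below all other libraries, and the difference was 1.70 ± 0.30 (edgeR adjusted p = 0.00298). RSI-1, a gene of the gibberellin-stimulated family, fell in both genotypes and less in *dgt*, with log2 steps of -4.41 and -3.02, a call that held in 4 of the 12 fits without 1 library (adjusted p of up to 0.129). CYP734A7 and CYP734A8, which inactivate brassinosteroids, had steps that differed by -2.74 and 1.33, and CYP724B2, of brassinosteroid synthesis, lost a fall. The calls of CYP734A7 and CYP724B2 held in 9 and 6 of the 12 fits, and that of CYP734A8 in all. Of 19 genes of ethylene perception and signalling, 1 was called (5.26%, near the share over all genes). It was EIL4, a transcription factor that gained a rise of 1.08. Of 53 ERF and CRF factors tested, 4 were higher and 2 lower (11.3%, with a median of 0.18). Of 22 jasmonate and wound genes, 3 were called (13.6%). Among them, opr2 rose more in *dgt*, TomloxE lost a rise and LOXB kept a smaller one, a call that held in 3 of the 12 fits (adjusted p of up to 0.138). Among 21 genes of abscisic acid and water stress, 4 were called (19.0%). LEAS1 and TAS14 were lower, and dhn, a dehydrin, and ER5, a late embryogenesis protein, were higher, the dhn call holding in 8 of the 12 fits. LEAS1 was put in that list by its symbol, and its RefSeq name AS1 gives no ground for it.

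Gained rises differed at either end of the step. LeANT went from 102, 123 and 133 counts to 131, 152 and 175 in WT and from 27.9, 43.7 and 59.1 to 221, 248 and 230 in *dgt*. The *dgt* libraries lay below all WT libraries in the elongation zone and above all of them in the differentiation zone. The steps were 0.35 ± 0.21 and 2.41 ± 0.22 and differed by 2.07 ± 0.31 (edgeR adjusted p = 0.000988). LOC101254533 crossed in the same manner, with 19.9 to 34.5 and 20.6 to 30.3 in WT and 5.77 to 10.3 and 45.4 to 68.1 in *dgt*. LOC101246926 differed at the end, where *dgt* had 453, 365 and 273 counts against 6.49 to 9.82 in WT, and its difference of 3.83 ± 0.85 (edgeR adjusted p = 0.0129) became 2.63, with an adjusted p of 0.184, without WT elongation replicate 1.

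Defence proteins had 3 gained rises and no gene called with a lower step among 25 tested. That is 12% against 5.56% of all genes (2.68% higher), with a median difference of 0.31. Fits without 1 library called 3 to 4 of them higher and 0 to 1 lower. TSI-1, a small protein of the PR-10 kind, had 15.9 to 64.4 and 33.4 to 47.6 counts in the WT zones and rose in *dgt* from 26.0, 20.4 and 38.4 to 215, 259 and 135. Only the *dgt* differentiation zone was high, and the difference was 2.68 ± 0.59 (edgeR adjusted p = 0.0118). That call was lost without WT elongation replicate 3, where the difference was 1.81 and the adjusted p 0.0546. The protease p69d instead started low in *dgt*, at 15.4, 5.83 and 11.3 against 86.5, 53.4 and 49.2 in WT, and ended at 69.3 to 78.5 against 75.7 to 107. PR5, a thaumatin-like protein, was lower in *dgt* in all libraries, with 6853 to 12720 and 11507 to 16670 in the WT zones and 283 to 523 and 1969 to 2979 in the *dgt* zones. It rose by 2.64 in *dgt* and by 0.70 in WT, a difference of 1.94 ± 0.37 (edgeR adjusted p = 0.00524).

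The next 4 enzymes belong to no list and were chosen after their values were seen, so they stand only for themselves. Formate dehydrogenase, fdh, and glutamine synthetase, gts1, both very abundant, rose in WT, from 20554 to 31705 up to 97938 to 117060 for fdh and from 17822 to 23102 up to 67286 to 85579 for gts1. In *dgt* they rose from 8135 to 11381 up to 92242 to 102571 and from 8331 to 10986 up to 90935 to 101411. In both genes the *dgt* elongation libraries were the lowest. Nitrite reductase, nii1, and glutamate dehydrogenase, gdh1, gained rises of 1.43 and 1.08, and for nii1 the counts were 1404 to 1664 over all 6 WT libraries against 778 to 842 and 1883 to 2430 in the *dgt* zones. The differences were 1.13 for fdh, 1.26 for gts1, 1.34 for nii1 and 1.17 for gdh1 (edgeR adjusted p = 0.0205, 0.00602, 0.00028 and 0.014).

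Of 18 transporters of nitrogen, phosphate, potassium and sulfate, 2 were called, both rising further in *dgt* (11.1%, against 5.56% of all genes), and the median difference was 0.18. LKT1, a potassium channel, rose in WT from 525, 890 and 712 to 1177, 2376 and 2344 and in *dgt* from 232, 280 and 245 to 3968, 3909 and 4903. The *dgt* zones lay outside the WT range on both sides. The steps were 1.47 and 4.08 and the difference 2.61 ± 0.34 (edgeR adjusted p = 0.000352). ST1, a sulfate transporter, behaved alike, with steps of 1.38 and 2.68. LOC101267799, which the RefSeq table names ST2.1, had the largest difference among steps that kept their direction and had no group at the floor, from 10.5 to 12.2 up to 58.4 to 70.6 in WT and from 8.44 to 10.6 up to 697 to 1156 in *dgt* (difference 4.14 ± 0.44, edgeR adjusted p = 7.15e-05).

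Gained falls were the smallest of the one-sided classes. XIP1-1-beta, a water channel of the X-intrinsic family, had 24.5, 46.7 and 83.1 and then 85.4, 63.9 and 85.3 in the WT zones, and fell in *dgt* from 1620, 2208 and 1047 to 440, 272 and 459. All *dgt* values were above all WT values, and the difference was -2.63 ± 0.48 (edgeR adjusted p = 0.00373). Of 15 aquaporins tested, 2 were called (13.3%, against 5.56% of all genes), 1 in each direction. The other, PIP2-4, gained a rise of 1.15, with a difference of 1.44 ± 0.31 (edgeR adjusted p = 0.00934). EXPA4, an expansin, lay at 79.6 to 124 and 93.0 to 106 in WT and fell in *dgt* from 175, 161 and 63.8 to 23.7, 19.8 and 25.5. The *dgt* differentiation libraries alone were low, and the difference was -2.56 ± 0.45 (edgeR adjusted p = 0.00298). A second expansin, exp9, gained a rise, from 6.73 to 23.3 up to 65.3 to 94.8 in *dgt*. These were the 2 called of 14 expansins (14.3%, against 5.56% of all genes). IPMS3, an isopropylmalate synthase, had 267 to 315 counts in the *dgt* elongation zone against 70.3 to 145 in the other groups. LOC101248729 and LOC101251067, unnamed, had differences of -4.18 ± 0.94 and -3.59 ± 0.60, the first from a high *dgt* elongation zone (83.5 to 129 against 0, 7.79 and 0 in that zone of WT, with a difference of -8.76 without WT elongation replicate 2) and the second from a low *dgt* differentiation zone (0.862 to 3.65 against 25.0 to 40.0 in that zone of WT).

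Other wall enzymes changed in size more than in kind. Of 26 xyloglucan, glucan and galactan enzymes, 15 fell in WT and 14 in *dgt*. Of the 26, 5 were called (19.2%, against 5.56% of all genes), 4 higher and 1 lower, with a median difference of 0.05 over the list. TBG3, a beta-galactosidase, fell in WT from 5559, 6191 and 6304 to 793, 1046 and 963 and went in *dgt* from 5602, 4905 and 7788 to 3065, 3213 and 3301. The genotypes overlapped before the step and were apart after it (difference 1.75 ± 0.23, edgeR adjusted p = 0.000397). SlPL, a pectate lyase, lost a fall, with 111 to 138 and 37.9 to 63.8 in WT and 168 to 224 and 220 to 281 in *dgt*. Outside the wall enzymes, 2 of 30 genes of sugar metabolism and transport were called (6.67%, near the share of 5.56% over all genes). STP11, a sugar carrier, lost a fall from the other side, with 368 to 552 and 70.3 to 124 in WT and 143 to 146 and 129 to 171 in *dgt*. CIF1, an invertase inhibitor, lost a rise, a call that held in 8 of the 12 fits without 1 library. Some lists held no called gene by edgeR's quasi-likelihood test: 19 WRKY factors, 12 LysM and related receptor kinases, 6 proton pumps, 5 histones and 4 terpene synthases. At an unadjusted p under 0.05 they held 6, 2, 1, 0 and 2 genes. DESeq2's Wald test called 1 of the kinases, and limma voom with quality weights 1 WRKY factor and 1 terpene synthase. SYMRK, a receptor kinase of root symbiosis, passed the adjusted p without the fold minimum (difference 0.99, edgeR adjusted p = 0.0345).

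Reversed steps were rare, and 3 of the 30 genes carry a symbol. SlGPAT6, an acyltransferase of lipid synthesis, was nearly absent from the WT elongation zone, at 0, 0 and 1.17 counts, reached 3.24 to 19.8 in the WT differentiation zone, and went from 53.4 to 188 down to 31.0 to 64.6 in *dgt*. The locus of the microRNA precursor MIR6023 had overlapping zones in WT. The third is HSP17-6. LOC101260941 rose in WT from 18.8, 25.6 and 32.8 to 185, 161 and 197 and fell in *dgt* from 27.9, 45.7 and 30.0 to 8.21, 6.90 and 9.46. The genotypes overlapped in the elongation zone and were far apart in the differentiation zone. The steps were 2.80 ± 0.25 and -2.06 ± 0.31 and the difference -4.86 ± 0.39 (edgeR adjusted p = 8.8e-06). LOC109119847 reversed from the elongation zone, with 10.5 to 42.3 and 163 to 233 in WT and 587 to 1000 and 20.1 to 235 in *dgt*, and its difference was -5.74 ± 0.85 (edgeR adjusted p = 0.000998). LOC101247035 fell in WT from 205, 130 and 138 to 59.5, 62.9 and 63.8 and rose in *dgt* from 8.65, 2.91 and 13.1 to 66.6, 67.2 and 51.1. Its genotypes met in the differentiation zone (difference 4.22 ± 0.44, edgeR adjusted p = 6.32e-05).

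HSP17-6, a small heat shock protein, fell in WT from 231, 100 and 171 to 84.3, 53.0 and 41.4 and rose in *dgt* from 363, 255 and 446 to 977, 737 and 823. The *dgt* libraries were above WT in both zones. The steps were -1.49 ± 0.32 and 1.25 ± 0.27 and differed by 2.74 ± 0.41 (edgeR adjusted p = 0.00105). HSP17.8, of the same protein group, gained a rise of 1.57, from 766 to 909 up to 2237 to 2652 in *dgt* against 192 to 239 and 259 to 279 in WT, and Hsp20.0 was called with neither step past 2-fold. These were the 3 called members of 24 heat shock genes, all higher (12.5%, against 5.56% of all genes called and 2.68% higher), with a median difference of 0.22. LOC101259599, which the gene table does not name, was abundant and fell in WT from 17353, 20857 and 17488 to 2445, 8896 and 6263 and rose in *dgt* from 11911, 8728 and 15205 to 31342, 21693 and 31415 (difference 2.90 ± 0.48, edgeR adjusted p = 0.00224).

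Genes of green tissue rose between the zones in both genotypes, 14 of 28 in WT and 16 in *dgt*, and 4 were called by the interaction, all with a lower *dgt* step (14.3%, against 5.56% of all genes called and 2.88% lower). CAB7, a light-harvesting protein, rose in WT from 0, 6.67 and 1.17 to 56.2, 57.0 and 53.4 and in *dgt* from 117, 106 and 140 to 386, 396 and 418. The *dgt* libraries were above WT in both zones, and the difference was -2.50 ± 0.52 (edgeR adjusted p = 0.00849), or -4.45 without WT elongation replicate 2, which held most of the WT elongation counts. rbcS1 and PSBR had differences of -2.51 and -1.20 and were likewise above WT in each zone, while Rbcs-3B was higher in *dgt* in both zones with neither step called. In the fit of all 18 libraries 1 of the 28 was called. Of 17 phenylpropanoid genes, 3 were called and all were lower (17.6%, against 5.56% of all genes called and 2.88% lower): CYP84A2, of lignin synthesis, rose less in *dgt*, and F3H and hqt, of flavonoid and chlorogenic acid synthesis, fell further. The calls of F3H and hqt held in 4 and 10 of the 12 fits without 1 library, and neither held in the fit of all 18 libraries.

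In 86 of the 1182 called genes at least 1 group was at or under 3 counts in every library, and in 35 of these another group had at least 50 in every library. LOC101253320, above, is one of them. LOC101247226 was nearly silent in WT, at 0 to 4.68 counts over the 6 libraries, and rose in *dgt* from 497, 502 and 489 to 1388, 1525 and 1538. With WT this low its interaction call held in 2 of 12 fits without 1 library, with an adjusted p of up to 0.573 and differences of 2.33 (without WT elongation replicate 3) to 5.69 (without WT differentiation replicate 2). LOC101267409 was at 0, 2.22 and 1.17 in the WT elongation zone and at 47.6, 99.2 and 139 in the WT differentiation zone, and had 327 to 632 and 557 to 959 counts in the *dgt* zones, a lost rise. RSEM divides reads between similar transcripts, and 9 of the called genes had whole counts in all 12 libraries, so counts of a gene with a near-identical copy are less certain. The library kit did not keep strand, and reads of genes that overlap on opposite strands cannot be told apart.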

How the data were processed

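RNA was sequenced by the authors as 51-bp single-end reads from TruSeq v2 libraries. Base calling used CASAVA 1.8.2, per the labels, and RSEM mapped them to transcripts predicted from the tomato (Heinz) genome. The deposited expected counts, estimated by RSEM for each gene and not normalized by the authors, were used for all tests. The TPM values, also deposited by the authors and scaled for transcript length and library total, were used for marker sums. The deposited isoform tables were not used, and the tables of the authors' own comparisons, which hold posterior fold changes and probabilities of *dgt* against WT in each zone, were left out.

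The counts, rounded to integers, were fitted with edgeR 4.0.16 in R 4.3.3 (filterByExpr with minimum count 10 and minimum total count 15, TMM, 1 mean per group, glmQLFit and glmQLFTest, prior count 0.125) over the 12 libraries. The contrast was the *dgt* step minus the WT step. Calls needed a Benjamini-Hochberg adjusted p under 0.05 over all 21270 genes tested and a fold over 2, for the interaction and for each step, and the standard error is the log2 value over the square root of F. The paper's methods compare genotypes within each zone, so the interaction is an added test. Its precision is limited by 3 replicates per group, whose biological coefficient of variation was 0.116 to 0.178, more than by library totals of 18032826 to 20622998. Libraries of the same number were not treated as pairs: over 18 same-numbered pairs the deviations correlated by -0.27 to 0.44, and 7 exceeded 0.1. The 3 pairs of WT zones did deviate together (0.16 to 0.44) and the 3 pairs of *dgt* zones did not (-0.27 to -0.04). Alternatives used DESeq2 1.42.0 and limma 3.58.1, and Python 3.11.15 drew the figures.

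Named genes were, in each class of lost, gained or reversed steps, the 2 with the largest difference and the 3 next with a symbol, among called genes with a mean of at least 50 normalized counts in 1 group, no group at the floor of 3 counts and no overlap between the zones where the step was called, then the largest of the steps kept in direction, 3 genes with a group at the floor, CyP, TAS14 and called members of the lists. Gene lists were formed by symbol. The members and lists were chosen with earlier results of these data known. Of 29922 genes, 24925 were matched through transcript accessions, 2008 through symbols and 1 through a synonym to RefSeq's list of tomato genes (assembly SLM_r2.1), which served for names only. Non-overlap of the zones in itself is common, holding for 63.0% of genes in WT and 67.0% in *dgt*. In simulated counts, 187 of 200 planted interactions among 20533 genes were recovered (56 of 66 at a log2 size of 1.5, 64 of 67 at 2 and 67 of 67 at 3), and 2.6% of calls were not planted. Both simulated genotypes had the WT means apart from the planted genes, and the libraries were drawn independently. Changes were planted only in genes well above the floor in both WT zones. The shares are therefore not error rates of the calls reported here.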

Additional observations from a re-analysis of the deposited data

Results flagged for a closer look

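The effect of genotype differed between the zones by the interaction test for 1182 genes. It reversed the zone step of 16 genes that rose in WT and of 14 that fell in WT. Among these, the difference of the steps was -5.74 for LOC109119847, -4.86 for LOC101260941, 4.22 for LOC101247035, 2.90 for LOC101259599 and 2.74 for LOC543848, the HSP17-6 gene. In the meristem libraries, *dgt* was higher than WT for 129 of 171 lost rises (75.4%), against 10.1% of all genes tested there. The 171 were those higher in the *dgt* elongation zone that could be tested in the meristem. They were chosen for a higher level in the neighbouring *dgt* zone, so all genes are not a matched background. Genes near 0 in the WT meristem could be tested only where their *dgt* meristem counts passed the filter.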

How the results depend on the processing

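Across alternative normalizations, tests and filters the numbers of called, lost, gained and reversed genes stayed within 1.5 times those reported, except for the following. With limma voom and quality weights 46 genes reversed. Without a fold minimum, 904 genes were higher and 138 reversed. With a 3-fold minimum, 608 genes were called, 250 higher and 358 lower, 116 steps were gained and 8 reversed, as fewer genes pass by construction. Leaving out 1 library gave 906 to 1140 called genes, 453 to 557 higher, 445 to 600 lower, 337 to 443 lost, 201 to 264 gained and 22 to 37 reversed. Between 73.2% and 84.2% of the lost steps, 68.6% and 80.5% of the gained and 70.0% and 93.3% of the reversed were in the same class in those fits. DESeq2's Wald test called 1396 genes and the fit of all 18 libraries 1065, with 39.6% of calls higher against 48.1%. Without WT replicate 1 in both zones, an alternative chosen after seeing the data, 1035 genes were called. The fit with a replicate block called 1206 genes, 422 lost, 267 gained and 33 reversed. A replicate block within each genotype, also added after seeing the data because same-numbered WT zones deviated together, called 1236 genes, 440 lost, 280 gained and 32 reversed, and the TAS14 call was lost there (adjusted p = 0.0502). For the 32 genes named by class, control and floor, 676 of 704 values under alternatives kept direction and call, 28 lost the call and none reversed. The 28 belong to 5 genes: LOC101246926, TSI-1, LOC101248729, LOC101247226 and TAS14. LOC101248729 lost its call only without WT replicate 1 in both zones (adjusted p = 0.0558). Over all 106 called genes that were named or in a list, 70 kept the call in each fit without 1 library and 36 lost it in at least 1, and none changed direction. The cause was not tested. The planned search of promoters for motifs was not run, since no promoter sequence was at hand here. Genes with too few counts for the filter were not tested, which at this depth leaves out genes that are low in every group.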

Other observations

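The 6 meristem libraries took no part in sorting the genes into classes, though the named genes were chosen with earlier results of these data known. These libraries give the level of the same genes below the elongation zone. Of the 208 lost rises that were higher in the *dgt* elongation zone, 171 could be tested in the meristem, and 129 of them (75.4%) were higher in the *dgt* meristem and 2 lower, against 10.1% higher and 2.72% lower of all 19926 genes tested there. Their median log2 difference in the meristem was 2.90. These genes were chosen for a higher level in the neighbouring *dgt* zone, so all genes are not a matched background. The share among all genes higher in the *dgt* elongation zone was not computed. A gene near 0 in the WT meristem could be tested only where its *dgt* meristem counts passed the filter. The 55 tested lost rises that were lower in the *dgt* differentiation zone had 3 genes higher and 4 lower in the meristem and a median of 0.01. Without WT meristem replicate 2, 141 of 181 were higher (77.9%), against 12.5% of all genes. TAS14 had a log2 difference of 9.19 ± 0.26 (SE) in the meristem, LEAS1 of 7.09 ± 0.62, LOC109119816 of 5.52 ± 0.36 and ABCG42 (LOC101251002) of 4.73 ± 0.48, with edgeR adjusted p-values of 1.38e-05, 0.000302, 8.56e-05 and 0.000556. A higher level in the *dgt* meristem was not particular to lost rises. It was called for 41% of the gained falls tested, 39% of the steps kept but smaller, 53.3% of the 15 steps reversed from a WT rise, 17.7% of the lost falls and 13.9% of the gained rises. Of genes outside the lost rises, TSI-1 had a log2 difference of 8.07, LOC109119847 of 6.99, LOC101248729 of 6.58, XIP1-1-beta of 4.46 and LOC101251538 of 3.47, and IAA21, CrtR-b1 and LeANT had 0.72, -0.15 and 0.01 and did not pass.

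Among 81 genes of the organelle genomes, CQW56_mgr05 had 11974 to 14050 and 5981 to 7335 counts in the WT zones and 6144 to 9528 and 10501 to 15421 in the *dgt* zones, with a difference of the steps of 1.66 (edgeR adjusted p = 0.00123). LyesC2r002 lost a fall, with a difference of 1.35 (edgeR adjusted p = 0.00883). Both were chosen after their values were seen. The 81 genes together took 0.0869% to 0.114% of counts in the WT elongation libraries and 0.0599% to 0.0768% in the WT differentiation libraries, against 0.0557% to 0.0951% and 0.108% to 0.178% in *dgt*.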
